A study of Mus musculus with 6 samples.

Results

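The nuclear genes for subunits of the respiratory chain were examined in cultured mouse cells with and without the lysosomal membrane protein DRAM2. The set held the protein-coding genes named Nduf (without Ndufa4l2 and the Ndufaf assembly factors), Sdha to Sdhd, Uqcr, Cox4i1, Cox5 to Cox8 and Atp5, with Usmg5. It came to 84 of the 52636 genes in the count table: 36 of complex I, 4 of complex II, 8 of complex III, 18 of complex IV and 18 of complex V, the ATP synthase. RNA was counted in single cells grown from the choroid (the vascular layer behind the retina) and the retinal pigment epithelium (RPE) of male C57BL/6J mice aged 12 to 16 months. There were 3 Dram2 WT samples, which carry both intact alleles, and 3 Dram2 KO samples, which carry a constitutive CRISPR deletion of exon 4 in every cell. The labels do not say whether samples came from separate animals or cultures, so each p-value measures only the spread between these samples, which may be technical.

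The 6 samples held between 2140 and 6648 cells and between 96808998 and 122746184 unique molecular identifiers (UMIs), each of which tags 1 captured RNA molecule. Dram2 KO replicate 2 had the lowest median depth per cell (16453 UMIs) and Dram2 KO replicate 1 the highest (47373 UMIs), while Dram2 KO replicate 3 was the single sample of batch 2 in the labels. Dram2 itself was read at 33.4, 39.6 and 38.1 counts per 1000000 UMIs (CPM) in Dram2 WT and at 30.7, 28.3 and 30.1 CPM in Dram2 KO. The assay reads the 3′ end of the RNA, which lies outside the deleted exon, so these values do not check the genotype. The deposited annotation names 8 cell types, which are clusters of the same cells on the same expression. All 5 endothelial and all 5 myeloid markers examined were highest in the cells so labelled. Of 10 RPE markers, 7 were highest in RPE cells (Krt18 at 710.3 and Otx2 at 87.4 CPM, but the defining Rlbp1 and Rpe65 at 6.59 and 0.693 CPM), while Best1 was highest in Fibroblast 2 and Mitf and Pmel in Myeloid cells. Of 6 pericyte markers, 1 was highest in the cells labelled Pericyte, Cspg4 at 198.7 CPM. Pdgfrb was at 29.4 CPM and Kcnj8 at 0 there, Higd1b was near 0 in every type, and the Schwann cell gene Sox10 was at 179 CPM, so Pericyte is kept here only as a label. The fibroblast genes Col1a1 and Col1a2 (1729 and 3682 CPM) and the cycling gene Mki67 (130.3 CPM) were also highest there, while Dcn, Lum and Pdgfra were highest in Fibroblast 2 and Mgp, Top2a, Cdk1 and Ccnb1 in Fibroblast proliferating cells.

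The respiratory chain sits in the inner mitochondrial membrane. Complexes I and II pass electrons from NADH and succinate to coenzyme Q, complex III passes them to cytochrome c and complex IV passes them to oxygen, and complex V uses the proton gradient built along the way to make ATP. Complexes I, III, IV and V combine many nuclear subunits with subunits encoded by mitochondrial DNA, and complex II is wholly nuclear. Most of the nuclear subunits outside the catalytic cores are very small proteins, and their genes have left many processed copies (pseudogenes) in the mouse genome. The RPE is known as a tissue that leans heavily on mitochondrial respiration.

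Both features were plain in the annotation (GENCODE M21, GRCm38). The median messenger RNA of the 84 genes was 760.5 bases long against 2508 bases in the other protein-coding genes, and the median coding length was 400.5 bases against 1167 bases. The coding lengths ran from 156 bases in Atp5e, the epsilon subunit of the ATP synthase, to 2181 bases in Ndufs1, the large iron-sulphur subunit of complex I. Shared 3′ sequence is the percentage of 31-base words in the last 400 bases of a gene's transcripts that also occur in another gene. It counts words matched on either strand, so overlap with an antisense gene is included. It was above 20% in 25 of the 84 genes (29.8%) and in 20.9% of the other protein-coding genes.

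In whole samples, all 23 tested genes with up to 300 coding bases had a lower mean level in Dram2 KO (log2 fold change below 0). With more than 600 coding bases, 6 of 20 were lower, and none of the members passed the test. These length limits were chosen after the values were seen. Of 198 other protein-coding genes with up to 300 coding bases and at least 10 CPM, 51.5% were lower. By the length of the whole mRNA, other short genes were mostly lower too, 41 of 46 with up to 500 bases. With an mRNA of up to 600 bases and up to 450 coding bases, 88.1% of 84 other genes were lower. The 23 include Cox6a2, with 101 UMIs in all, which ran from -0.79 to 0.12 with 1 sample left out. The Dram2 KO samples lay below every Dram2 WT sample in 33 of the 81 genes tested, against a background of 7.33% of all 22580 genes tested, and above every Dram2 WT sample in 4, against 4.2%. Counting any difference, 53 of the 81 were lower, against 49.0% of all genes. The median log2 fold change (Dram2 KO over Dram2 WT) was -0.26 over the 81 genes and 0.0046 over all genes. The largest differences were those of Atp5l (-1.45), Cox7c (-1.41), Ndufb4 (-1.13), Uqcr11 (-1.05), Usmg5 (-0.98) and Ndufc1 (-0.91). None of the 81 passed the voom-limma test at an adjusted p under 0.05, where the lowest adjusted p was 0.0798 and 0% of all genes passed. At an unadjusted p under 0.05 there were 38 of 81, of which 36 were lower in Dram2 KO, beside 7.01% of all genes and 5.67% lower. The edgeR quasi-likelihood test called none either (35 of 81 at an unadjusted p under 0.05, against 6.67% of all genes), while DESeq2 called 13 of the 81 and 1.69% of all genes. No call by voom-limma does not show that the groups were alike, with 3 samples each. Cox7b2, Cox8b and Cox8c, with 23, 3 and 5 UMIs in all, were removed by the filter on low counts.

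The complexes differed in how many of their genes were lower, but no test compared them, and their genes also differ in length. Coding lengths ran from 189 (Cox7c) to 507 bases (Cox4i1) in complex IV and from 477 (Sdhd) to 1992 bases (Sdha) in complex II. The part of length in the differences between complexes was not tested. In complex I, which takes electrons from NADH, 20 of 36 genes were lower, 16 with no overlap between the genotypes, and the median log2 fold change was -0.26. In complex III, 6 of 8 genes were lower and the median was -0.28, with 2 below and 2 above without overlap. In complex V, 12 of 18 genes were lower and the median was -0.05, with 6 below and 2 above. Complex IV, cytochrome c oxidase, had 13 of 15 tested genes lower and a median of -0.38, with 9 below every Dram2 WT sample. Complex II, succinate dehydrogenase, had 2 of 4 lower and a median of 0.02, and all 4 genes overlapped between the genotypes. Of all genes tested, 7.33% lay below every Dram2 WT sample and 4.2% above.

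The catalytic flavoprotein Sdha was read at 139, 154 and 146 CPM in Dram2 WT and at 142, 136 and 153 CPM in Dram2 KO. The iron-sulphur subunit Sdhb was read at 281, 240 and 248 CPM in Dram2 WT and at 272, 315 and 257 CPM in Dram2 KO, a log2 fold change of 0.15 ± 0.11 (SE). The membrane anchors Sdhc and Sdhd differed by 0.05 ± 0.07 and -0.02 ± 0.12. With 1 sample left out, Sdhb ran from 0.040 (without Dram2 KO replicate 2) to 0.22 and Sdhc from 0.0076 (without Dram2 WT replicate 3) to 0.065. All 4 genes of complex II overlapped between the genotypes, and the sign for Sdha (-0.0057) and Sdhd turned with the setting, to 0.00195 for Sdha with DESeq2 and to 0.0104 for Sdhd with the batch as a covariate.

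Among the largest differences was that of Cox7c, a small subunit of cytochrome c oxidase encoded on chromosome 13 at 86044816 to 86046904. It was read at 146, 182 and 177 CPM in Dram2 WT and at 89.0, 59.9 and 45.5 CPM in Dram2 KO. Every Dram2 KO sample lay below every Dram2 WT sample, with a log2 fold change of -1.41 ± 0.21 (SE) and an adjusted p of 0.0798 by voom-limma. Atp5l, subunit g of the ATP synthase (chromosome 9 at 44912557 to 44920742), had 34.3, 40.2 and 42.3 CPM in Dram2 WT and 21.8, 12.6 and 10.2 CPM in Dram2 KO. Its groups were as far apart (-1.45 ± 0.23, the same adjusted p). Uqcr11, the complex III gene with the shortest coding sequence (chromosome 10 at 80402997 to 80406830), had 128, 171 and 167 CPM against 103, 53.3 and 72.8 CPM. Usmg5, a small subunit of the ATP synthase dimer (chromosome 19 at 47083464 to 47090647), had 226, 318 and 272 CPM against 187, 118 and 111 CPM. Ndufc1, an accessory subunit of the complex I membrane arm (chromosome 3 at 51404677 to 51408988), had 211, 249 and 233 CPM against 153, 94.7 and 124 CPM. In each of these genes replicate 1 was the highest of the Dram2 KO samples and replicate 2 or 3 the lowest.

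Complexes I, III and IV each had another gene among their 2 largest differences without overlap. Ndufb4, an accessory subunit of complex I, had 2.65, 3.47 and 3.55 CPM in Dram2 WT and 2.35, 1.30 and 1.03 CPM in Dram2 KO. Uqcrq, a ubiquinone-binding subunit of complex III, had 734, 826 and 830 CPM against 599, 403 and 691 CPM. Cox6c of complex IV had 327, 344 and 374 CPM against 281, 153 and 288 CPM. None of these 3 genes overlapped between the genotypes, and their log2 fold changes were -1.13 ± 0.27, -0.51 ± 0.17 and -0.57 ± 0.21. Without Dram2 KO replicate 2 they were -0.31 for Uqcrq and -0.30 for Cox6c.

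The members that took the most UMIs differed in this respect. Cox4i1, a regulatory subunit of complex IV, was read at 1736, 1609 and 1594 CPM in Dram2 WT and 1532, 1777 and 1668 CPM in Dram2 KO. Atp5b, the catalytic beta subunit of the ATP synthase, had 1155, 1188 and 1136 CPM against 1146, 1114 and 1158 CPM. Both overlapped between the genotypes, at 0.03 ± 0.10 and -0.01 ± 0.07. Cox8a, which codes for a small membrane subunit of complex IV, had 1742, 1614 and 1680 CPM in Dram2 WT and 1308, 999 and 1519 CPM in Dram2 KO, with no overlap (-0.40 ± 0.13, unadjusted p 0.0167, adjusted p 0.447 by voom-limma). Without Dram2 KO replicate 2 its difference was -0.26. Of the other members with the highest CPM in their complex, Ndufa2 of complex I had 662, 691 and 723 CPM against 508, 351 and 549 CPM, with no overlap (-0.57 ± 0.15). Ndufb9 of complex I overlapped (0.04 ± 0.11). Uqcrh, the hinge protein of complex III, Ndufa4 of complex IV and Atp5d, the delta subunit of the ATP synthase, overlapped between the genotypes, at -0.22 ± 0.12, -0.22 ± 0.14 and 0.12 ± 0.12. Leaving out 1 sample moved these to between -0.34 and -0.10 for Uqcrh, -0.35 and -0.070 for Ndufa4 and -0.0051 and 0.19 for Atp5d. The 4 genes with every Dram2 KO sample above every Dram2 WT sample were Uqcrc2 and Uqcrfs1 (the core protein and the Rieske iron-sulphur protein of complex III) and Atp5f1 and Atp5o (the peripheral stalk of the ATP synthase), with log2 fold changes of 0.13, 0.17, 0.28 and 0.23. Without Dram2 KO replicate 2, that of Uqcrfs1 was 0.11.

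Within cell types, the test passed for a few members in 2 fibroblast populations. In Fibroblast proliferating cells, 5 of 80 tested members were called lower in Dram2 KO, where 0.624% of all 18113 genes tested were called. These were Atp5l (27.8, 32.9 and 35.1 CPM against 16.9, 10.0 and 9.22 CPM), Cox7c (139, 177 and 173 CPM against 83.7, 60.3 and 44.2 CPM), Uqcr11, Usmg5 and Ndufc1. Their log2 fold changes were -1.47 ± 0.19, -1.43 ± 0.20, -1.07 ± 0.19, -1.05 ± 0.18 and -0.98 ± 0.15, and their adjusted p-values by voom-limma were 0.0297, 0.0307, 0.0469, 0.0444 and 0.0333. In Fibroblast 2 cells, 3 of 80 were called lower, where 0.222% of 14882 genes were called. They were Cox7c (-1.40 ± 0.21, adjusted p 0.0461), Atp5l (-1.39 ± 0.20, adjusted p 0.0461) and Ndufc1 (-0.93 ± 0.15, adjusted p 0.0490), again by voom-limma. All of these genes had every Dram2 KO sample below every Dram2 WT sample in both populations.

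**Figure D1:**
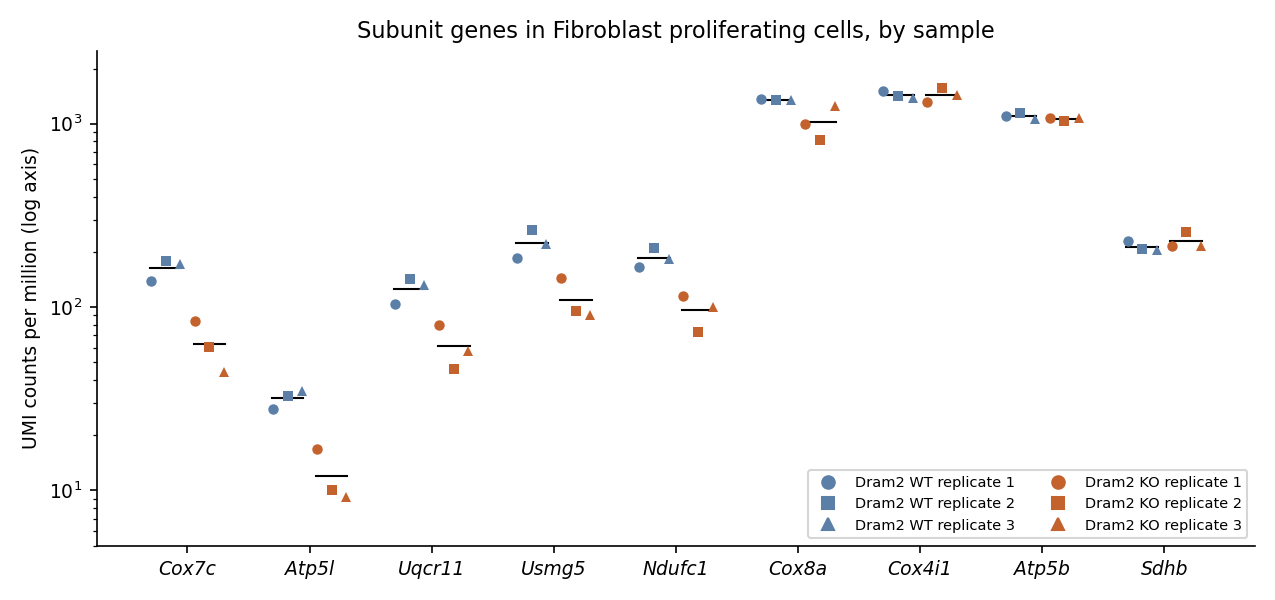
CPM (log axis) of 9 subunit genes in Fibroblast proliferating cells, with 1 point per sample, Dram2 WT on the left and Dram2 KO on the right of each gene, and a bar at each mean. Cox7c, Atp5l, Uqcr11, Usmg5, Ndufc1 and Cox8a do not overlap between the genotypes, and Cox4i1, Atp5b and Sdhb do.

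Leaving out Dram2 WT replicate 2, Dram2 WT replicate 3 or Dram2 KO replicate 2 left 0 calls among the members in both populations, and so did leaving out Dram2 WT replicate 1 in Fibroblast 2, while leaving out Dram2 KO replicate 1 gave 10 and 6 calls, and Dram2 KO replicate 3, the sample of batch 2, gave 21 and 3. Leaving out Dram2 WT replicate 1 gave 6 in Fibroblast proliferating. The edgeR quasi-likelihood test called 3 in Fibroblast proliferating and 0 in Fibroblast 2 (0.342 and 0.0739% of all genes), and DESeq2 called 20 and 11 (1.77 and 1.13%). Library size alone as the scaling gave 3 and 0 calls, and leaving out mitochondrial and ribosomal protein genes gave 0 in Fibroblast 2. With pseudogene copies added to their genes, 1 call was left in Fibroblast 2. Batch as a covariate gave 17 in Fibroblast proliferating, and the replicate number as a block gave 0 in both populations. Ndufc1 was under a 2-fold difference in both populations. At an unadjusted p under 0.05, voom-limma gave 39 of 80 and 35 of 80 members, beside 6.79 and 6.2% of all genes.

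The other 6 populations gave no call among the members by voom-limma. Background calls were 0.00503% of genes in Fibroblast, 0.0118% in Pericyte, 0.0296% in Myeloid and 0% in RPE, Fibroblast-like and Endothelial. At an unadjusted p under 0.05 there were 39 of 81 members in Fibroblast (7.18% of all genes), 29 of 80 in RPE (4.65%), 17 of 76 in Fibroblast-like (5.08%), 25 of 74 in Pericyte (5.9%), 21 of 71 in Endothelial (5.24%) and 23 of 73 in Myeloid (5.94%). By edgeR, 0 members were called in Fibroblast (0.00503% of genes), RPE, Fibroblast-like, Pericyte and Endothelial (0%) and 2 in Myeloid, Cox7c and Uqcr11 (0.148%). DESeq2 called 14 members in Fibroblast (1.61%), 1 in RPE (0.203%), 1 in Fibroblast-like (0.346%), 2 in Pericyte (0.26%), 2 in Endothelial (0.195%) and 0 in Myeloid (0.163%), where the calls in RPE and Fibroblast-like were Cox7c and those in Pericyte and Endothelial were Cox7c and Ndufc1. The Myeloid type was tested on 2 samples against 2, since Dram2 WT replicate 1 and Dram2 KO replicate 1 held fewer than 10 of these cells. The median log2 fold change of the members lay between -0.28 (Fibroblast proliferating) and -0.21 (Endothelial) in all 8 types, beside medians of all genes between -0.0152 and 0.00982. The types share the same samples, so these medians are not separate observations. Single samples moved them. Without Dram2 KO replicate 2 they were -0.15 in whole samples, -0.16 in Fibroblast, -0.15 in Fibroblast 2, -0.054 in Fibroblast-like, -0.025 in Pericyte and -0.089 in Myeloid cells. Without Dram2 KO replicate 3 the RPE median was -0.15 and the Myeloid median -0.45. Leaving out replicate 2 or 3 left 1 Dram2 KO sample in the Myeloid fit. Without Dram2 KO replicate 1 the RPE median was -0.44 and the Fibroblast-like median -0.36.

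Cox7c gives an example. In Fibroblast cells it was read at 143, 182 and 175 CPM in Dram2 WT and 85.8, 58.1 and 43.1 CPM in Dram2 KO (-1.47 ± 0.215, adjusted p 0.0586). In RPE cells it was read at 174, 190 and 186 CPM against 105, 58.5 and 51.5 CPM (-1.43 ± 0.27, adjusted p 0.268). In Endothelial cells it was read at 139, 192 and 152 CPM against 72.0, 53.6 and 31.6 CPM (-1.62 ± 0.28, adjusted p 0.106, all by voom-limma). The genotypes were apart in each of the 3 types, and replicate 3 was the lowest Dram2 KO sample in each. Within RPE cells the beta subunit Atp5b had 1264, 1321 and 1272 CPM against 1132, 1241 and 1375 CPM, and Cox4i1 had 2213, 1806 and 2017 CPM against 1888, 2225 and 1781 CPM, both with overlap.

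A test of the difference between types, an interaction of genotype and cell type with the sample as a factor, called none of the members between Fibroblast and any other type by voom-limma (0.0101% of genes called for Fibroblast proliferating and 0% for each other type). Members with an unadjusted p under 0.05 numbered 3 of 81 for Fibroblast proliferating (3.72% of all genes), 1 of 80 for Fibroblast 2 (5.13%), 0 for RPE (1.86%), 0 for Fibroblast-like (3.94%), 2 for Pericyte (4.51%), 2 for Endothelial (6.0%) and 1 for Myeloid (5.8%). By edgeR, 1 member was called for Pericyte and 1 for Endothelial, Cox6b2 in both (0.208 and 0.205% of genes), and 0 for Fibroblast proliferating (0.00506%), Fibroblast 2 and RPE (0%), Fibroblast-like (0.0331%) and Myeloid (0.138%). Cox6b2, the isoform of Cox6b1 that is best known from testis, was read in Pericyte cells at 16.1, 94.3 and 49.3 CPM in Dram2 WT. In Dram2 KO it was read there at 13.6, 13.8 and 10.3 CPM. Dram2 KO replicates 1 and 3 held 17 and 23 Pericyte cells, with 440539 and 484516 UMIs over all genes, so these values rest on few counts.

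The genotype difference varied with the length of the coding sequence. Among the 75 members with at least 10 CPM on average, all 21 with a coding length of up to 300 bases were lower in Dram2 KO, with a median log2 fold change of -0.57. With 1 sample left out, all 21 were still lower and the median ran from -0.70 (without Dram2 KO replicate 1) to -0.38 (without Dram2 KO replicate 2). Of 198 other protein-coding genes in that class, 51.5% were lower (median -0.0056). Of the 22 with more than 300 and up to 450 bases, 19 were lower (median -0.34), beside a median of 0.06 over 437 other genes. Among longer members, 3 of 13 with up to 600 bases (median 0.05) and 5 of 19 above 600 bases (median 0.09) were lower. Without Dram2 KO replicate 2 these were 6 of 13 (median 0.013) and 8 of 19 (median 0.027). Without Dram2 KO replicate 3 they were 1 of 13 and 5 of 19. Spearman's rank correlation between coding length and log2 fold change was 0.76 over the 75 genes, given as a description, since the genes share the same 6 libraries. The main exception among long genes was Ndufv3, an accessory subunit of complex I with a coding length of 1404 bases, at 184, 215 and 216 CPM against 146, 105 and 176 CPM (-0.54 ± 0.16, and -0.36 without Dram2 KO replicate 2). The 3 genes of more than 300 and up to 450 bases that were not lower were Cox5a, Ndufc2 and Atp5g3, at 438, 360 and 423 coding bases, with log2 fold changes of 0.17, 0.0052 and 0.09. The sign of Ndufc2 turned with several settings (-0.012 with library size alone and -0.0083 without Dram2 WT replicate 2), and Atp5g3 was at 0.048 without Dram2 WT replicate 1. The length limits were chosen after the values were seen.

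**Figure D2:**
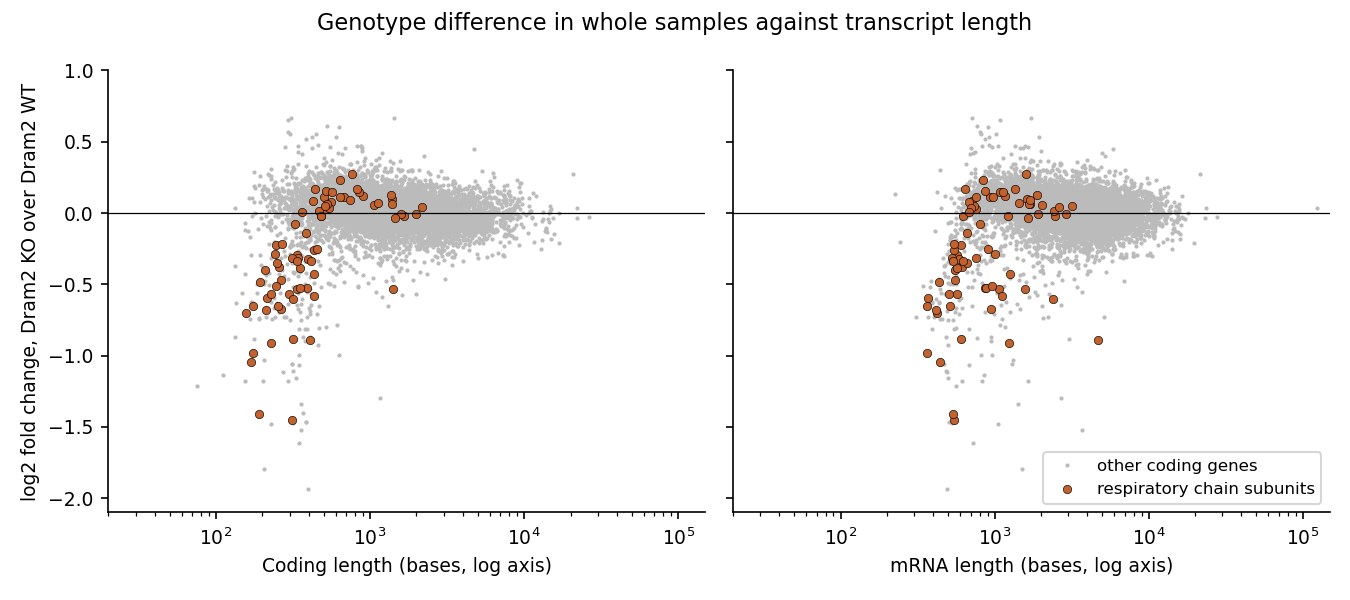
Log2 fold change between the genotypes in whole samples (vertical axis) against coding length (left) and mRNA length (right) in bases on log axes, for 75 subunit genes (orange) and 8316 other protein-coding genes (grey) with at least 10 CPM. All 21 subunit genes with up to 300 coding bases lie below 0, and grey points with an mRNA of up to 500 bases extend as low.

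By the length of the whole mRNA, other short genes were mostly lower too. Of 46 other protein-coding genes with an mRNA of up to 500 bases, 41 were lower in Dram2 KO, with a median of -0.55, beside -0.68 over 7 members of that length. From there to 600 bases the medians were -0.23 over 46 other genes and -0.39 over 14 members. With up to 600 bases and over 20% shared 3′ sequence, 53 of 57 other genes were lower (median -0.51), beside 8 of 8 members (-0.78). With up to 5% shared, 19 of 29 other genes were lower (median -0.35), beside 7 of 7 members (-0.65). Between 600 and 800 bases the medians were 0.05 over other genes and -0.01 over members, and above 1500 bases 0.02 and 0.04. Between 800 and 1500 bases the 21 members had a median of -0.08, with 12 lower, while 1143 other genes had one of 0.10, with 19.7% lower. Over all 8316 other genes the rank correlation with coding length was -0.27, so the relation was not one over the whole range of lengths. With up to 450 coding bases and an mRNA of up to 600 bases, all 21 members and 74 of 84 other genes were lower. Their medians were -0.57 and -0.47. With up to 450 coding bases and an mRNA above 600 bases, 22 members had a median of -0.40 and 551 other genes one of 0.06. The annotated length of some of these members is uncertain, as Ndufc1 has 1249 bases in its principal transcript and 315 in its shortest transcript with the same coding length, and Atp5g1 has 4660 and 596. With the shortest such transcript, 16 members stayed above 600 bases, with a median of -0.34 beside 0.07 for 512 other genes. The largest differences among these 16 were those of Atp5j2 (955 bases, -0.67), Ndufa12 (1110 bases, -0.58), Cox7a2l (1076 bases, -0.53), Cox5b (865 bases, -0.53) and Ndufa5 (875 bases, -0.52). Without Dram2 KO replicate 2, Atp5j2 was at -0.42 and Ndufa5 at -0.31. The part of transcript length in the genotype difference was not tested.

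The same order by coding length held in each cell type. The types are parts of the same 6 samples, so they are not separate observations of it. The median for up to 300 coding bases lay between -0.53 (Endothelial) and -0.71 (Pericyte), with every tested member of that class with at least 10 CPM lower in each of the 8 types. Below that level, Cox6a2, with 101 UMIs in all, had a log2 fold change of 0.34 in Fibroblast cells. The median above 600 bases lay between 0.03 and 0.16. In RPE cells the medians were -0.65 for up to 300 bases, -0.42 for the next class up to 450, -0.01 for that up to 600 and 0.04 above. The rank correlation with coding length ran from 0.73 to 0.82 over the 8 types.

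Summed over genes, the whole set took 2.91, 2.96 and 2.95% of all UMIs in Dram2 WT and 2.61, 2.33 and 2.77% in Dram2 KO, so that the Dram2 KO mean was 87.4% of the Dram2 WT mean. The 26 genes with up to 300 coding bases took 1.10, 1.20 and 1.21% against 0.909, 0.630 and 0.999% (72.4%), and the 24 with more than 300 and up to 450 bases took 0.672, 0.673 and 0.671% against 0.608, 0.514 and 0.637% (87.2%). All Dram2 KO samples lay below all Dram2 WT samples in both classes, with replicate 2 the lowest. The classes up to 600 bases and above 600 bases came to 103.3% and 103.8% of Dram2 WT. Above 600 bases the shares were 0.5751, 0.5739 and 0.5601% against 0.5763, 0.5973 and 0.6003%. All Dram2 KO samples thus lay above all Dram2 WT samples there, replicate 1 by little, while the class up to 600 bases overlapped. The other protein-coding genes with an mRNA of up to 500 bases took 1.30, 1.32 and 1.42% against 1.15, 0.793 and 1.22% (78.0%), again with replicate 2 the lowest. The median UMI count per cell was also lowest in Dram2 KO replicate 2, but it was highest in Dram2 KO replicate 1, which lay below Dram2 WT as well. The part of depth in the difference was not tested. In sums over many cells, fewer cells that express a gene and less of its RNA per cell cannot be told apart.

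**Figure D3:**
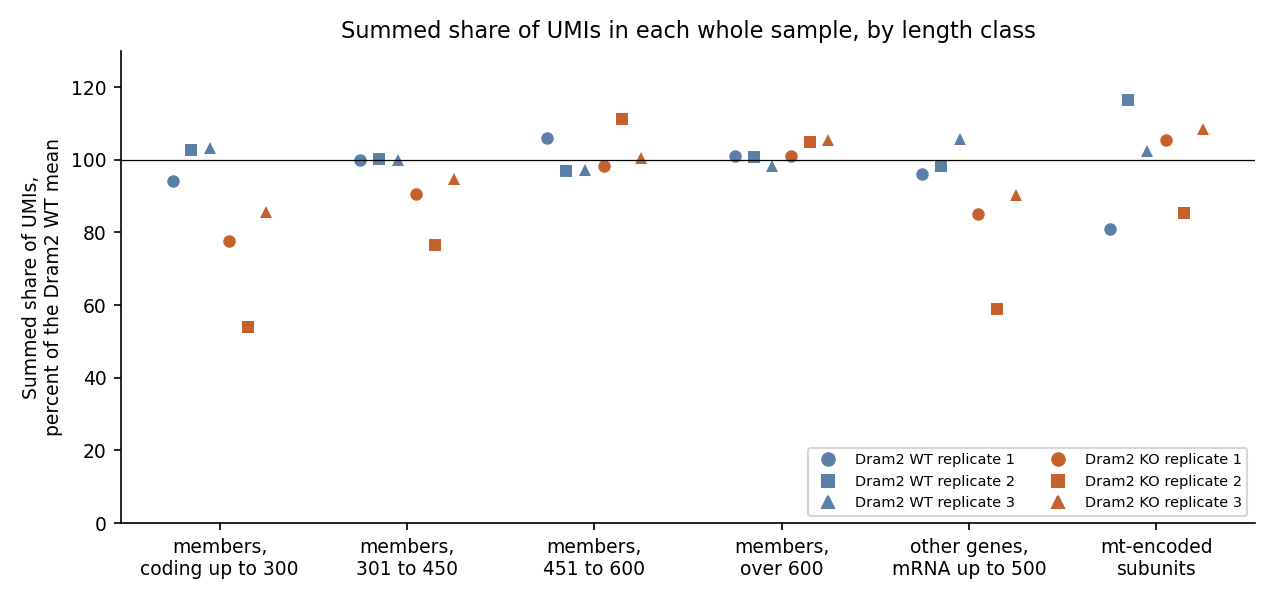
Summed share of UMIs in each whole sample as a percentage of the Dram2 WT mean (vertical axis, from 0), for 4 coding-length classes of subunit genes, for other protein-coding genes with an mRNA of up to 500 bases and for the 13 mitochondrially encoded subunits. Dram2 KO samples sit below all Dram2 WT samples in the sets up to 300 and up to 450 coding bases and in the other short genes, with replicate 2 the lowest, and mix with them in the mitochondrially encoded subunits. Above 600 coding bases they sit above all Dram2 WT samples, replicate 1 by little.

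Other genes of the same processes were examined as fixed lists. The 13 subunits encoded by mitochondrial DNA took 2.18, 3.13 and 2.76% of UMIs in Dram2 WT and 2.84, 2.29 and 2.92% in Dram2 KO (99.7%), with a median log2 fold change of 0.05. The sum came mostly from mt-Cytb, mt-Nd4, mt-Nd1 and mt-Nd2 (9695, 6062, 5627 and 3942 CPM on average in Dram2 WT). For mt-Co1, mt-Co2, mt-Co3, mt-Atp6, mt-Nd3 and mt-Nd4l, 98.1 to 100% of the 3′ sequence is shared, so their counts are uncertain. Among the 13, mt-Atp8, the shortest at 204 bases, had 2.82 ± 0.606 against 0.915 ± 0.708 CPM (SD, n = 3), a log2 fold change of -1.87. It was the single gene of these lists called in any type, lower in Fibroblast proliferating cells. Its sequence overlaps that of mt-Atp6, so its count is uncertain. Of 45 assembly factors, none was called in any type by voom-limma, and the median was 0.06, with 4 lower and 0 higher at an unadjusted p under 0.05 in whole samples. Of all genes, 5.67% were lower at that p. Among the 4 is Cox17, a small copper chaperone for complex IV, at 288 ± 31.2 against 174 ± 38.4 CPM (SD, n = 3) (-0.74, adjusted p 0.130 by voom-limma). The medians were 0.11 over the electron carriers and subunits outside the rule (5 genes), 0.05 over 11 transcriptional regulators of the chain, -0.0073 over 15 glycolytic genes and 0.04 over 11 genes of the tricarboxylic acid cycle, with 0 called in each in whole samples. At an unadjusted p under 0.05 these 4 lists held Ndufa4l2 and Ldha (higher) and Eno1 (lower, with 82.3% shared 3′ sequence).

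The order of the Dram2 KO samples varied with shared sequence. Among the 37 members with up to 5% shared 3′ sequence, Dram2 KO replicate 2 was the lowest of the Dram2 KO samples in 20 and replicate 3 in 6. Among the 23 above 20%, replicate 2 was the lowest in 9 and replicate 3 in 10. Among other protein-coding genes, the same counts were 2911 and 1755 of 6323 with up to 5% shared sequence and 482 and 448 of 1201 above 20%. Among the 8 members with an mRNA of up to 600 bases and over 20% shared, the median log2 ratios to the Dram2 WT mean were -0.42, -1.19 and -0.92 in replicates 1, 2 and 3. In the 7 such members with up to 5% shared they were -0.40, -1.06 and -0.24. Atp5e, with 156 coding bases and no shared 3′ sequence, was read at 653, 815 and 802 CPM in Dram2 WT and 520, 334 and 552 CPM in Dram2 KO, so that replicate 3 was the highest of the Dram2 KO samples. Replicate 3 is also the only sample of batch 2, and a property of that batch and a property of that sample cannot be told apart.

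**Figure D4:**
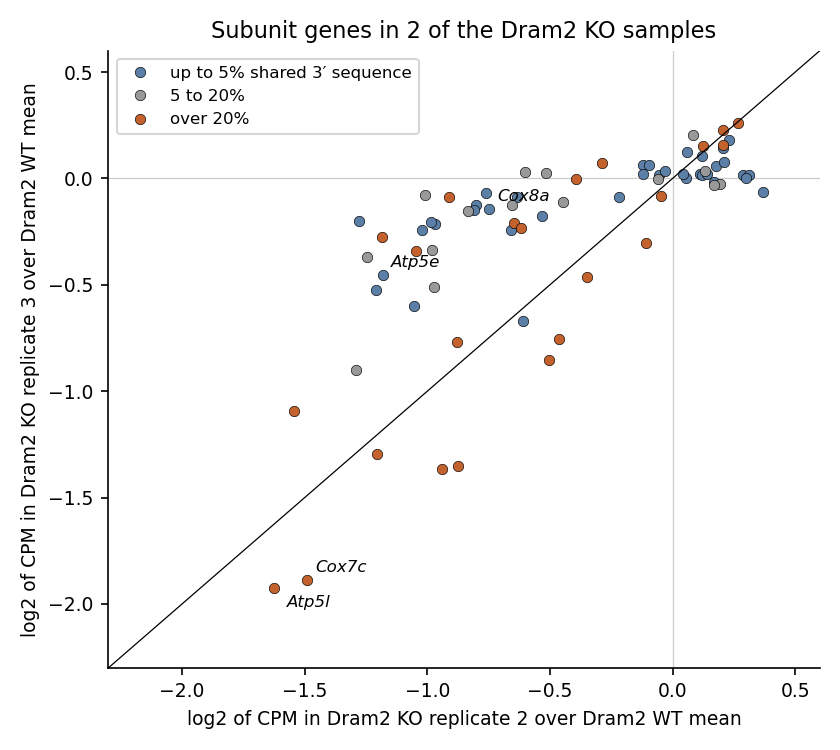
Log2 ratio of CPM to the Dram2 WT mean in Dram2 KO replicate 2 (horizontal axis) and replicate 3 (vertical axis) for 75 subunit genes, coloured by shared 3′ sequence, with a line of equal ratios. Cox7c and Atp5l lie at the bottom left, and replicate 3 is the lowest Dram2 KO sample in 10 of the 23 genes with over 20% shared sequence.

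Printed here are the last 60 coding bases of 3 members, stop codon included and read 5′ to 3′, each followed by the best-matching window of 1 or 2 pseudogenes (GENCODE M21 transcripts), with capitals where the copy differs from the member. The copies lie on chromosome 17 (Gm10012), 11 (Atp5l-ps2 and Gm10039) and 13 (Gm36758). They are shown because Cox7c and Atp5l differed most and because the copies of Atp5g1, a gene for subunit c of the ATP synthase, hold more counts than the gene.
Cox7c: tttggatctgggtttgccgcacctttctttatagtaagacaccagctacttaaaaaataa
Gm10012: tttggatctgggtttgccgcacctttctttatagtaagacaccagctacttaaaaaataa
Atp5l: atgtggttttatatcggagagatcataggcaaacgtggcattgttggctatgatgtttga
Atp5l-ps2: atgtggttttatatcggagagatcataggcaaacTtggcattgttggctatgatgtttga
Gm36758: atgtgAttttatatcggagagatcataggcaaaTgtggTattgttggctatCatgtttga
Atp5g1: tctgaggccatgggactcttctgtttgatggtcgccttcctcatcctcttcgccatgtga
Gm10039: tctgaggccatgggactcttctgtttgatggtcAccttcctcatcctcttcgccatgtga
The copy shown for Cox7c had 0 mismatches over these 60 bases, that shown for Atp5g1 had 1, and those shown for Atp5l had 1 and 4. Another 4 copies of Atp5l had 0 mismatches, as did Gm12338 for Cox7c and Gm12337 for Atp5g1.

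In all, 57 pseudogenes shared 31 or more such words with the 3′ ends of 29 members, and 52 of them were lower in Dram2 KO (median -0.58, from -1.79 to 0.32), 28 at an unadjusted p under 0.05 and 0 called by voom-limma. The 3796 other pseudogenes tested had a median of -0.17, with 64.5% lower. Replicate 3 was the lowest Dram2 KO sample in 40 of the 57 and replicate 2 in 17. Atp5l has 10 such copies, of which Gm10221 was read at 9.47, 10.2 and 10.97 CPM in Dram2 WT and at 5.35, 3.74 and 2.69 CPM in Dram2 KO. Of the copies of Cox7c, Gm10012 had 3.29, 4.40 and 4.06 CPM against 4.40, 1.99 and 2.51 CPM, with overlap.

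The copies differed widely in their part of the counts. For Ndufs5, a small subunit of complex I, the pseudogene BC002163 held 24488 UMIs and the gene 7937. BC002163 was read at 44.4, 42.9 and 46.6 CPM in Dram2 WT and 33.1, 22.1 and 28.7 CPM in Dram2 KO, and Ndufs5 at 15.9, 14.7 and 14.7 CPM against 11.7, 7.87 and 5.86 CPM. Copies also held more UMIs than the gene for Atp5g1 (17726 and 13414), Uqcrb (9540 and 8294) and Ndufs3 (5147 and 2873). Reads that match a gene and its copy cannot be placed, so the counts of these 4 genes are uncertain, and so are those of the genes called in fibroblasts as far as they share sequence (79.7% of the 3′ words in Atp5l, 40.5% in Cox7c, 21.9% in Uqcr11, 21.1% in Usmg5 and 8.09% in Ndufc1). For Cox7c, Ndufc1 and Uqcr11 the copies held 4.61, 6.52 and 12.7% of the joint count, and for Atp5l 30.8%. With copies added to the gene, the log2 fold change was -1.35 for Cox7c, -0.87 for Ndufc1, -1.04 for Uqcr11, -1.37 for Atp5l, -0.72 for Ndufs5 and -0.68 for Atp5g1, and that of Usmg5 and Cox6c, with 25716 and 29892 UMIs in copies, was -0.94 and -0.65. It moved by over 1.5 times for Uqcrb (-0.34 to -0.75), Ndufs3 (-0.35 to -0.14), Atp5g2 (-0.26 to -0.50) and Atp5h (-0.018 to -0.082). Atp5h and Atp5o, subunits of the ATP synthase with 69.3 and 61.1% shared sequence, were at -0.082 and 0.20 with copies added. Other protein-coding entries share 3′ words with members as well. Gm20538 held 277950 UMIs beside 321767 in Ndufb8, and Gm42420 held 138567 beside 187516 in Ndufb2. The counts of Ndufb8 and Ndufb2 are uncertain as far as they share these words, and such entries were not added to the gene.

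Promoters were examined because many members differed together. Windows from 250 bases before to 50 after the start site (RefSeq, GRCm38.p6) were found for 67 of the 84 genes, 72 windows in all. They were searched on both strands for the core letters of NRF1 (GCATGCGC), GABP (CCGGAAGT) and YY1 (ATGGCGGC), factors known to act on genes of the respiratory chain. At least 1 of the 3 was present in 29.2% of the members' windows and in 8.23% of 32851 windows of all genes. NRF1 letters were in 13.9% against 2.71%, GABP letters in 6.94% against 3.89% and YY1 letters in 9.72% against 2.24%. The genes that lay below Dram2 WT without overlap and the other tested members held such letters in 29.0% of 31 windows and 30.8% of 39. By factor, these were 19.4 and 10.3% for NRF1, 6.45 and 7.69% for GABP and 6.45 and 12.8% for YY1. A match is a description of letters and not of binding.

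Printed next are the stretches from 120 bases before to 30 bases from the start site of 3 genes that fell in Fibroblast proliferating cells and 2 that overlapped between the genotypes, 5′ to 3′ on the strand of the gene, with the letters of any match in capitals.
Cox7c (chr13:86046766-86046915, minus strand): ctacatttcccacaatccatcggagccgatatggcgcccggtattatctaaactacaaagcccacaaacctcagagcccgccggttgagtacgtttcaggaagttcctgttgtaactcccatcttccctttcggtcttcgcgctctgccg
Uqcr11 (chr10:80406792-80406941, minus strand): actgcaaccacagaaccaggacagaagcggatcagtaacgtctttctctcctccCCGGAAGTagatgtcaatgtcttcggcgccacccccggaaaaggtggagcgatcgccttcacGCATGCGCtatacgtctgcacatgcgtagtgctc
Ndufc1 (chr3:51408926-51409075, minus strand): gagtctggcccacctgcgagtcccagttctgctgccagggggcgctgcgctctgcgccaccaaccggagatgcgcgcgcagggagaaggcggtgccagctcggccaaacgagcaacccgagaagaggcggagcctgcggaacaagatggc
Atp5b (chr10:128083187-128083336, plus strand): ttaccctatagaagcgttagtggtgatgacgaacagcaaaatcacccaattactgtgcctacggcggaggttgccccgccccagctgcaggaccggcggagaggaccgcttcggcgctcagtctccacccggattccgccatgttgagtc
Sdhb (chr4:140961151-140961300, plus strand): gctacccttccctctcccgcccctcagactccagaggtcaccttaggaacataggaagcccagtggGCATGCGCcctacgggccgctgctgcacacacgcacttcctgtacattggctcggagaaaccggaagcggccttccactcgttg
Uqcr11 holds letters of GABP and NRF1 and Sdhb letters of NRF1, and the other 3 stretches hold none. These genes were not chosen by a rule, so no relation between matches and the genotype difference is read from them.

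Between cell types, the mean summed share of the members was lowest in Pericyte and highest in Fibroblast-like cells. These levels are descriptions without a test, because the types were defined on the same expression values. The share was 2.24 ± 0.257% of UMIs in Pericyte, 2.39 ± 0.224% in Fibroblast proliferating, 2.45 ± 0.246% in Endothelial and 2.81 ± 0.257% in Fibroblast cells (SD, n = 6 samples). It was 3.08 ± 0.319% in RPE, 3.29 ± 0.345% in Fibroblast 2 and 3.51 ± 0.365% in Fibroblast-like cells (n = 6), and 2.76 ± 0.431% in Myeloid cells (n = 4). Within samples, Fibroblast proliferating, Pericyte and Endothelial cells lay below Fibroblast cells in 6 of 6 samples and Fibroblast 2 and Fibroblast-like cells above in 6 of 6. RPE cells lay above in 5 of 6 and Myeloid cells in 1 of 4. Neighbours in this order differed by less than the larger of their SDs over samples.

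**Figure D5:**
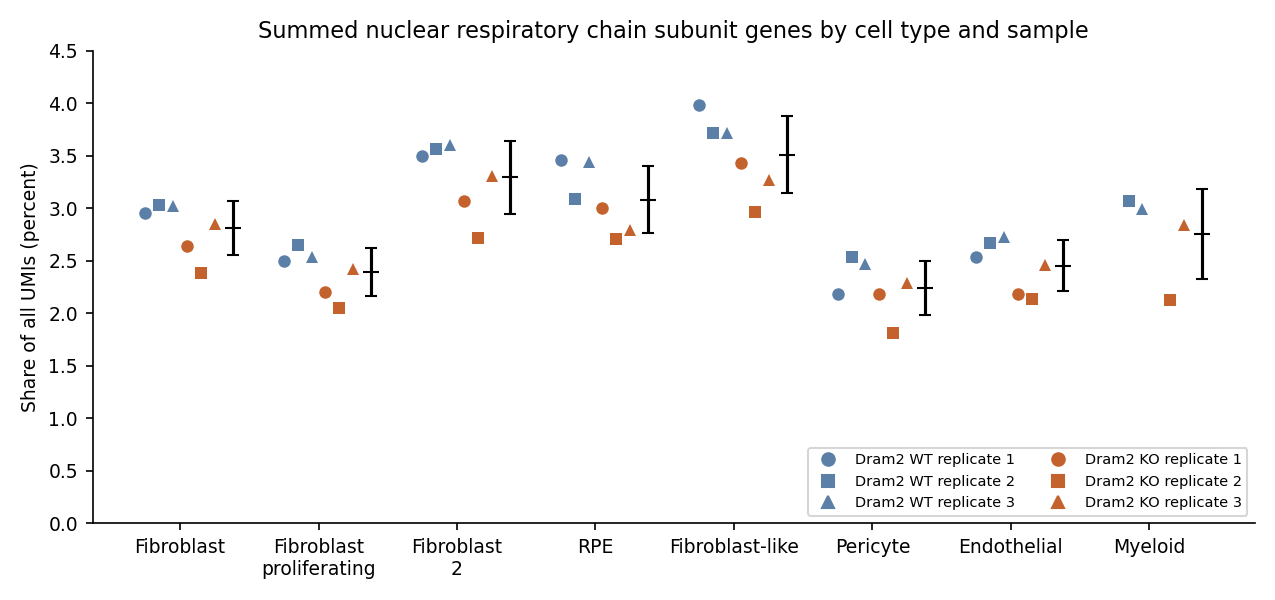
Summed share of UMIs of the 84 genes (vertical axis, percent) in each cell type, with 1 point per sample and a bar for the mean and SD over samples (n = 6, Myeloid n = 4). Means run from 2.24% in Pericyte to 3.51% in Fibroblast-like cells, and Dram2 KO replicate 2 is the lowest of all samples in each type.

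Single genes were also counted. In Fibroblast proliferating cells, 59 of 75 members lay below Fibroblast cells of the same sample in all 6 samples, against 35.3% of the 8615 protein-coding genes with a mean of 10 CPM or more over the types, and in Fibroblast 2 cells 57 lay above (39.5%). In Pericyte and Endothelial cells 46 and 39 lay below (22.8 and 24.0%), and in Fibroblast-like cells 55 lay above (12.7%). In RPE cells 25 lay above (25.2%) and 5 below (27.4%). Nuclear and mitochondrial genes were not always ordered alike. In Fibroblast 2 cells, the share of the mitochondrially encoded subunits was 0.660 times that in Fibroblast cells and below it in 6 of 6 samples, while that of the nuclear members was 1.17 times. RPE cells had ratios of 0.857 and 1.10. Fibroblast-like cells, whose median depth of 4825 UMIs per cell was the lowest of all types, held 9.70 ± 3.91% of summed UMIs in the mitochondrially encoded subunits, although the median cell of the type held 3.29% in mitochondrially encoded genes, and the part of depth and of mitochondrial RNA in their high share of nuclear members was not tested.

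The ratios of single genes varied. In Fibroblast proliferating cells the ratio to Fibroblast cells was lowest for Cox6b2 (0.579), Ndufa6 (0.654) and Ndufa7 (0.677), 2 of them accessory subunits of complex I, and highest for Sdhd (1.22), Uqcrfs1 (1.13) and Atp5g3 (1.11). In Fibroblast 2 cells Ndufa6 was the highest at 2.01 (range over samples 1.84 to 2.15), before Ndufa12 (1.67) and Ndufa7 (1.47), and Cox6b2 (0.850), Atp5c1 (0.885) and Atp5g3 (0.886) were lowest. Ndufa6 was at 437 ± 89.6 CPM in Fibroblast 2, 217 ± 36.7 CPM in Fibroblast and 142 ± 24.7 CPM in Fibroblast proliferating cells (SD, n = 6). In RPE cells the complex I core subunit Ndufs7 (1.40), the Rieske protein Uqcrfs1 (1.34) and Ndufa12 (1.31) were highest, and Cox6b2 (0.455), Ndufb9 (0.782) and Ndufa6 (0.901) lowest. In Fibroblast-like cells Cox7b (1.84), Cox7a2l (1.70) and Atp5o (1.61) were highest and Ndufb9 (0.773) was the single member below Fibroblast cells in every sample. In Pericyte cells Ndufs1 (1.24), Cox7a2l (1.17) and Uqcrfs1 (1.13) were highest and Cox6b2 (0.129), Ndufb6 (0.515) and Usmg5 (0.602) lowest. In Endothelial cells Ndufa8 (1.34), Ndufb3 (1.19) and Atp5e (1.14) were highest and Cox6b2 (0.144), Sdhc (0.631) and Ndufa13 (0.678) lowest. In Myeloid cells, over 4 samples, Cox5b (1.38), Ndufv3 (1.35) and Atp5c1 (1.18) were highest and Cox6b2 (0.525), Cox6a1 (0.694) and Ndufs4 (0.767) lowest.

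Subunits with tissue-specific isoforms were represented mainly by their ubiquitous form. Per kilobase of mRNA, Cox8a was at 2686, Cox4i1 at 2189 and Ndufa4 at 1880 CPM (1477, 1653 and 1147 CPM undivided), the last a subunit of complex IV that was first assigned to complex I. The assay counts 3′ ends, so values per kilobase depend on the annotated length and the order of neighbouring genes is not read from them. Of the Cox6a pair, the common form Cox6a1 was at 703 CPM per kilobase and the heart and muscle form Cox6a2 at 0.221 CPM per kilobase. Of the Cox7a forms, Cox7a2 was at 1259, the supercomplex-associated Cox7a2l at 25.9 and the muscle form Cox7a1 at 7.27 CPM per kilobase. Cox8b and Cox8c were read with 3 and 5 UMIs in 6 samples. Of the genes for subunit c of the ATP synthase, Atp5g3 was at 526 CPM per kilobase, while Atp5g2 and Atp5g1, both with much shared sequence, were at 7.64 and 19.8 CPM, undivided because the length of Atp5g1 is uncertain. Cox6b2 was read at 272 CPM per kilobase beside 1290 CPM per kilobase of Cox6b1. Its level was 183.9 ± 48.1 CPM in Fibroblast cells, 32.9 ± 33.4 CPM in Pericyte and 37.7 ± 35.4 CPM in Endothelial cells (SD, n = 6), below Fibroblast cells in all samples.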

How the data were processed

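RNA was measured by 10x 3′ single-cell sequencing in 6 samples, 3 per genotype. Per the labels and the submitters' processing notes, the authors aligned reads to GRCm38 with Cell Ranger 3.1.0, and the deposited table holds raw UMI counts per gene and cell, over exons, for 25428 cells that they had kept and named. Counts were summed here per sample and per sample and cell type (10 or more cells), filtered with filterByExpr, scaled by TMM and tested with voom-limma (R 4.3.3, limma 3.58.1, edgeR 4.0.16), with Benjamini-Hochberg adjustment over all genes and a threshold of 0.05. The study names voom-limma with edgeR size factors too, but no filterByExpr, and adds a limit on fold change that was not applied here. Alternatives were DESeq2 1.42.0, edgeR's quasi-likelihood test and other size factors, filters, covariates and left-out samples. On simulated counts for the whole-sample comparison (22570 genes), 54% of genes lowered to 0.5 times and 100% of genes lowered to 0.25 times were recovered. Of genes raised to 2 and 4 times, 76% and 100% were recovered, with 50 genes changed at each fold. Another 20 genes that had not been changed were called as well. CPM are counts per 1000000 UMIs of the sample or type. Lengths and the last 400 bases came from GENCODE M21, and 52489 of 52636 gene IDs matched.

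Genes were named by rule: in each comparison, up to 5 higher and 5 lower called members with the largest change; per complex, the 2 members with the largest difference among those without overlap and the 2 with the highest CPM; per cell type, the 3 largest and 3 smallest ratios to Fibroblast that go one way in every sample; the paralog families, Ndufa4 and complex II; the 5 members with the most UMIs in copies; and Dram2. Exceptions to a length class, and members and copies that illustrate length or shared sequence, were chosen after their values were seen, as were the class limits. The members and gene lists were chosen with earlier results of these data known. Cells carry running numbers in place of barcodes in the deposited table, so barcodes that libraries share could not be counted, and doublets were treated only by the alternative that left out the deepest 5% of cells. Replicate numbers are shared by the genotypes, but same-numbered samples had correlations of deviations of 0.0987, -0.429 and 0.028, so they were not treated as pairs.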

Additional observations from a re-analysis of the deposited data

How the results depend on the processing

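Of the 417 alternative values of the main results, 365 stayed within the limits set for them. In whole samples (0 members called), DESeq2 called 13 and batch as a covariate 2. In Fibroblast (0), DESeq2 called 14, no filter on low counts 5 and the batch covariate 2. In Fibroblast proliferating (5), edgeR called 3, DESeq2 20, library size alone 3, no filter 10 and the batch covariate 17. In Fibroblast 2 (3), edgeR, library size alone and leaving out mitochondrial and ribosomal protein genes gave 0, DESeq2 11, no filter 5 and added copies 1. DESeq2 called 1 in RPE, 1 in Fibroblast-like, 2 in Pericyte and 2 in Endothelial cells, and no filter 1 in Fibroblast-like. In Myeloid cells (0), edgeR called 2 and no filter 4. The interaction by edgeR called 1 in Pericyte and 1 in Endothelial. The causes were not tested. With the replicate number as a block, the calls were 0 in Fibroblast proliferating, 0 in Fibroblast 2 and 3 in Myeloid cells, and the block changed no other count of called members. The Fibroblast-like share (3.51%) was 4.25% without mitochondrial and ribosomal protein genes in the total and 4.16% after a cell filter.

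Leaving out 1 sample gave 0 to 9 calls in whole samples (9 without Dram2 KO replicate 1). It gave 0 to 8 in Fibroblast and 0 to 21 in Fibroblast proliferating. The counts were 0 to 6 in Fibroblast 2, 0 to 6 in Fibroblast-like and 0 to 2 in Pericyte. In Myeloid cells, leaving out 1 sample left 1 in a group, so calls are not counted there. The members' median ran from -0.34 to -0.15 in whole samples, -0.44 to -0.15 in RPE, -0.36 to -0.054 in Fibroblast-like, -0.38 to -0.02 in Pericyte and -0.45 to -0.09 in Myeloid cells.

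Among single genes, signs turned for those near 0. Atp5b was 0.0022 without the deepest cells. Atp5h was 0.0039 with edgeR, 0.012 with DESeq2 and 0.13 with the batch covariate. Sdha was 0.00195 with DESeq2, 0.0017 with RLE size factors and 0.0059 without the deepest cells, and Sdhd 0.0104 with the batch covariate. Ndufc2 (0.0052) was -0.012 with library size alone. With 1 sample left out, the ranges were -0.0051 to 0.19 for Atp5d, -0.19 to 0.13 for Atp5h, -0.051 to 0.078 for Cox4i1, -0.79 to 0.12 for Cox6a2, -0.065 to 0.099 for Ndufb9, -0.040 to 0.014 for Sdha and -0.13 to 0.062 for Sdhd. Depth limits Cox6a2, Cox7b2, Cox8b and Cox8c, which had 3 to 101 UMIs.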
